A study of Homo sapiens with 6 samples.

Results

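Genes for 8 secreted stress hormones and mitokines were followed in RCC4, a VHL-deficient cell line from a human clear cell carcinoma of the kidney. The genes were GDF15, FGF21, INHBE, INHBA, ADM2, ADM, STC1 and STC2. They were taken by name from a list of secreted peptides and growth factors linked to the integrated stress response, and all 8 were found among the 60683 genes of the count table. The choice was made with earlier results of these data known. RNA sequencing compared 3 parental libraries, labelled wild type, with 3 libraries of the same line labelled ATF4 KO, and no treatment, dose or time was given for either group. Neither the method of the knockout, nor whether it is 1 clone or a pool, nor whether replicates were separate cultures is stated in the labels, so p-values measure only the variation between these libraries, which may be technical.

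In the integrated stress response, phosphorylation of the initiation factor eIF2 slows general translation while translation of ATF4, a bZIP transcription factor, increases. ATF4 then raises transcription of genes for amino acid supply and redox balance, and of several hormones that carry the stress signal out of the cell. GDF15 and FGF21 are called mitokines because mitochondrial stress induces them. In the kidney, ADM and the stanniocalcins are also known as products of hypoxic or stressed tubular cells.

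Libraries held 41002611 to 46755358 counts, and 15321 genes had enough counts to be tested. Chi-square per degree of freedom, which is near 1 for sampling noise alone, was 3.59 to 5.80 between replicates and 37.9 to 44.1 between groups, and no library was a copy of another. All 8 markers of renal carcinoma cells (PAX8, PAX2, CA9, NDUFA4L2, VIM, KRT8, KRT18 and EGLN3) were present, with at least 683 counts in any library, while CD3E was at 0 and the other 5 markers of immune and endothelial cells had at most 10 counts. The renal markers were not steady between groups. At an edgeR adjusted p below 0.05, 4 were higher and 2 lower in knockout libraries, as were 21.2% and 20.8% of all tested genes. CA9 changed most, rising 5.84-fold. In these bulk libraries fewer cells expressing a gene and less RNA per cell cannot be told apart. The ATF4 transcript (chromosome 22, 39519695 to 39522685, GRCh38) was at 244 ± 5.97 CPM (counts-per-million values after TMM scaling, SD, n = 3) in parental and 214 ± 8.04 CPM in knockout libraries, a log2 fold change of -0.19 (SE 0.029, edgeR adjusted p = 3.19e-07). Tested genes within 10 Mb of it had a median of -0.27, and with this regional median removed the sign turned, to 0.08 (adjusted p = 0.0324). A count of ATF4 reads cannot tell an intact from an altered coding sequence, so it is no check of the labels.

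Of the 8 factors, 7 were tested and 5 were lower in the knockout libraries at an adjusted p below 0.05, namely GDF15, INHBE, ADM2, ADM and STC2. STC1 was called higher, INHBA was not called, and FGF21 had 0 counts throughout. Over all tested genes 20.8% were called lower and 21.2% higher, so that a call in either direction was common (42.0%). The median log2 fold change of the 7 tested factors was -0.50, also with ADM2 at its bound, beside 0.01 over all tested genes. INHBE and ADM2 passed the low-count filter through the parental libraries alone and so had to differ, which means that neither the count nor the median is evidence about the group. With the median of neighbouring genes removed, the 5 lower calls remained and STC1 was no longer called (36.4% of all tested genes were called in that fit, 18.3% lower and 18.0% higher), and DESeq2 gave the same calls as that fit (37.8% called among all genes, 19.3% lower and 18.5% higher). The CPM ranges of the 2 groups did not overlap for 5 of the 7, the same 5 that were called lower. Among all tested genes 24.3% had non-overlapping ranges with lower knockout values and 25.3% with higher ones.

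**Figure D1:**
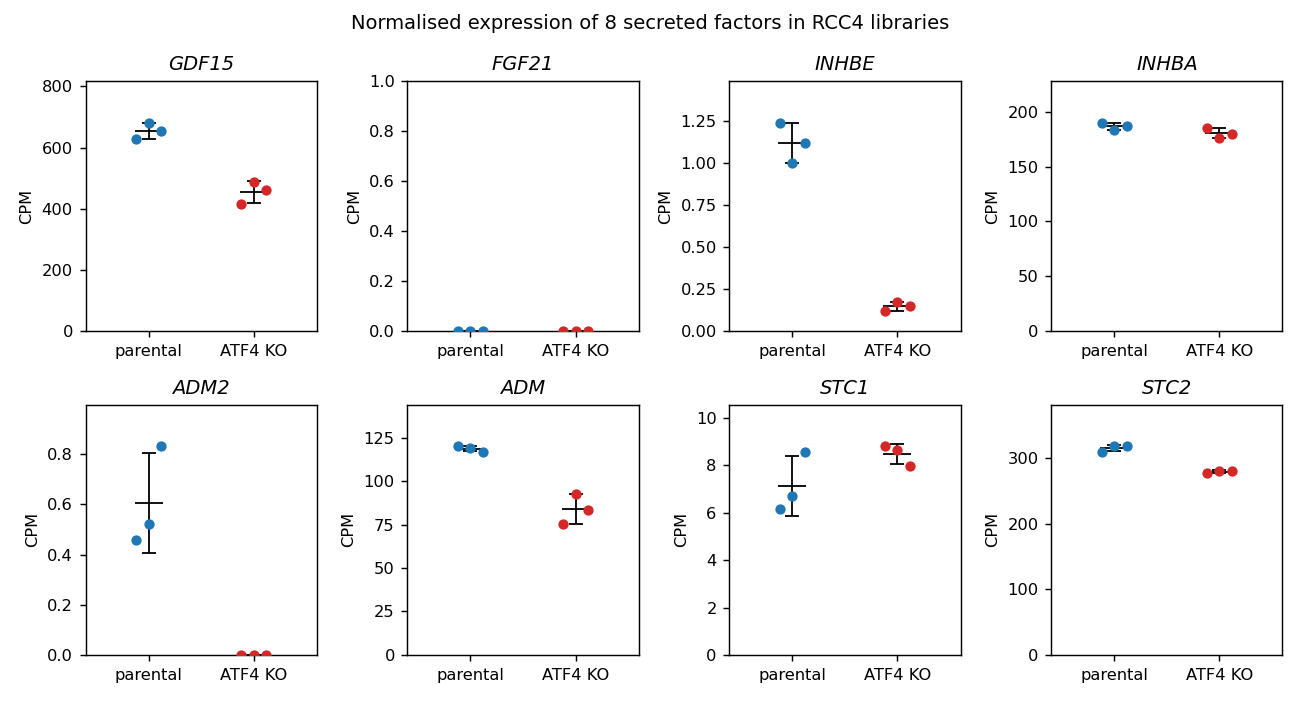
Normalised expression in CPM (linear axes from 0) of each of the 8 factors in the 3 parental (blue) and 3 ATF4 knockout (red) libraries, with the mean as a bar and the SD as whiskers. GDF15, INHBE, ADM2, ADM and STC2 lie lower in every knockout library than in any parental one, the groups overlap for INHBA and STC1, and FGF21 is at 0.

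Levels between genes were compared per kilobase of annotated exon, the union over all transcripts of a gene, so that a gene with long unused exons is placed too low. On this scale GDF15 was the most abundant of the 8 in parental libraries, at 314 CPM per kb. By the mean over the libraries of both groups, 109 of the 15214 tested genes with an exon length had a higher level. STC2 followed at 51.4, ADM at 43.6 and INHBA at 22.5 CPM per kb. STC1 was at 1.72, INHBE at 0.371 and ADM2 at 0.141 CPM per kb. The order in knockout libraries was the same, with levels of 217 for GDF15, 45.6 for STC2, 30.9 for ADM, 21.8 for INHBA, 2.05 for STC1 and 0.0488 CPM per kb for INHBE, and with ADM2 and FGF21 both at 0. Apart from that last pair, the ranges of neighbours in the order did not overlap within either group.

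**Figure D2:**
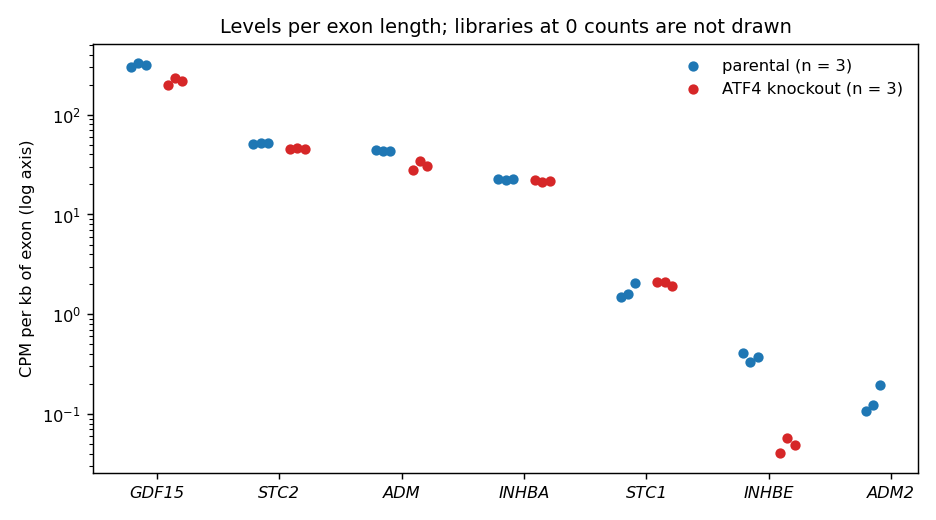
Level of 7 factors in CPM per kb of exon (log axis) in each parental (blue) and knockout (red) library, ordered by parental level, with ADM2 not drawn in the knockout libraries because it had 0 counts there. GDF15 stands at 314 CPM per kb in parental and 217 in knockout cells, above STC2 at 51.4 and 45.6.

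GDF15, a distant TGF-beta family hormone that lowers appetite through a hindbrain receptor, fell 1.44-fold. GDF15 (ENSG00000130513) lies on the plus strand of chromosome 19 from 18374731 to 18389176 (GRCh38). Its level was 629, 681 and 653 CPM in parental libraries and 415, 487 and 460 CPM in knockout libraries. Every knockout library lay below every parental one, and the lowest of all was knockout replicate 1. The means were 655 ± 25.9 and 454 ± 36.1 CPM (SD, n = 3 each), and the log2 fold change was -0.53 (SE 0.063, edgeR adjusted p = 0.000818). It had 27366 to 29946 counts in each parental library, and 877 tested genes had a lower log2 fold change. Neighbouring genes had a median of 0.04, and GDF15 was at -0.57 with it removed.

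A second gene in the table lies inside GDF15. MIR3189 (ENSG00000264175), a microRNA gene on the same strand, occupies an intron of GDF15, and its 73-base hairpin at chr19:18386562-18386634 overlaps 0 exons of the 5 GDF15 transcripts in GENCODE 29. The nearest GDF15 exon ends 95 bases upstream. The hairpin is shown because it is counted apart from the GDF15 exons, with capitals for the 5p and 3p mature arms, and each mature sequence is given with its seed, bases 2 to 8, in capitals (RefSeq, GRCh38.p14).
MIR3189 hairpin: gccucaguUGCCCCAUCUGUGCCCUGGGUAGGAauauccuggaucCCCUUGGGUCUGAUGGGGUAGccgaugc
hsa-miR-3189-5p: uGCCCCAUcugugcccuggguagga
hsa-miR-3189-3p: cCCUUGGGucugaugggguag
The 2 arms have different seeds. The libraries hold fragments of long RNA and do not measure the mature microRNAs.

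Counts at the MIR3189 locus fell further than those of GDF15. This gene was chosen after its values were seen. The locus held 77, 65 and 100 counts in parental libraries and 13, 23 and 25 in knockout libraries, or 1.87 ± 0.457 and 0.446 ± 0.114 CPM (SD, n = 3 each). The log2 fold change was -2.05 (SE 0.27, edgeR adjusted p = 5.56e-09), a 4.13-fold decrease, and it stayed between -2.19 and -1.84 when any 1 library was left out. Per 1000 GDF15 counts there were 2.81, 2.17 and 3.64 MIR3189 counts in parental libraries and 0.761, 1.02 and 1.15 in knockout libraries. The log2 ratio of MIR3189 to GDF15 was lower in each knockout library than in any parental one, with means of -8.47 and -9.98 and a difference of -1.52 (exact permutation test, two-sided, p = 0.1, the smallest that 3 against 3 libraries allow).

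**Figure D3:**
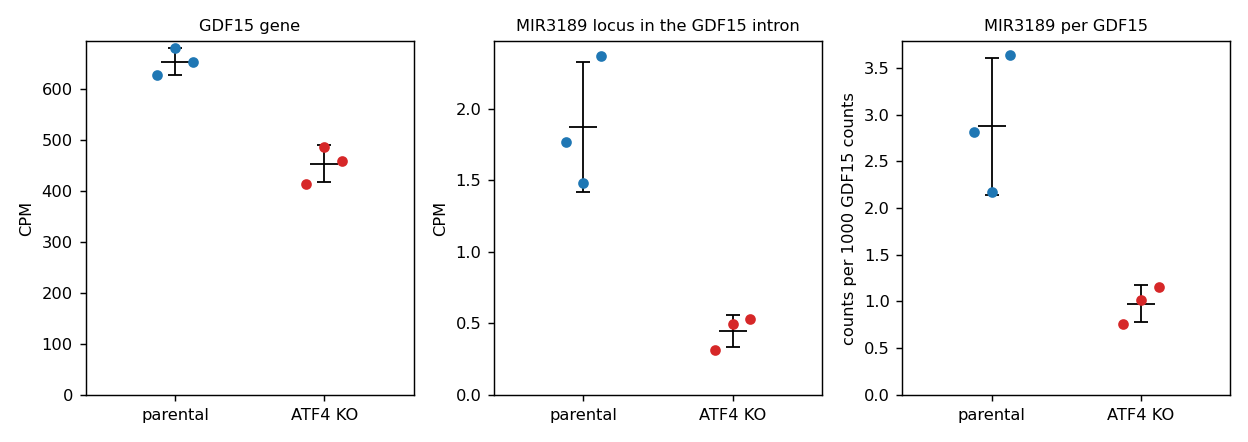
GDF15 in CPM (left), the MIR3189 locus inside its intron in CPM (middle) and MIR3189 counts per 1000 GDF15 counts (right) in each parental (blue) and ATF4 knockout (red) library, with the mean as a bar and the SD as whiskers (n = 3). The intronic locus falls from 1.87 to 0.446 CPM while GDF15 falls from 655 to 454 CPM.

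FGF21, an endocrine fibroblast growth factor that the liver secretes on fasting and that stressed muscle also makes, was not detected. FGF21 (ENSG00000105550, chromosome 19, 48755559 to 48758333, plus strand) had 0 counts in each of the 6 libraries, which allows up to 0.0634 to 0.0729 CPM per library (3 counts, counting error only). No comparison of the groups was therefore possible at this depth.

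The bases before the start sites of 6 of the 8 genes were found in a RefSeq promoter table (GRCh38.p14, 250 bases before to 50 after the start), while INHBE and STC1 had no entry. They were searched on both strands for TGATGNAA, the core of the composite element bound by C/EBP and ATF proteins, for ACGTG, the core of the hypoxia response element, and for TGACGT, from the cyclic AMP response element. Of all 35116 windows, 3.62% held the first, 21.4% the second and 7.98% the third. FGF21 held 1 match, TTGCATCA, the opposite strand of the first motif, beginning 54 bases before the start site. The windows of GDF15, INHBA, ADM2, ADM and STC2 held none of the 3. For GDF15, INHBA, ADM and STC2 an annotated exon (of any gene) reached the base just before the start site used. Other start sites that these genes may have were not searched. The stretch before FGF21, at chr19:48755391-48755523, is shown because it carries the match (in capitals) yet its gene had no counts, and that before ADM2, at chr22:50481293-50481542, because this gene had no counts in the knockout libraries and holds no match there. Both are on the plus strand.
FGF21 upstream: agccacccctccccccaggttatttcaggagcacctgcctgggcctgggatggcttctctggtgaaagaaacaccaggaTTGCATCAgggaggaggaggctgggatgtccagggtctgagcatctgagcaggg
ADM2 upstream: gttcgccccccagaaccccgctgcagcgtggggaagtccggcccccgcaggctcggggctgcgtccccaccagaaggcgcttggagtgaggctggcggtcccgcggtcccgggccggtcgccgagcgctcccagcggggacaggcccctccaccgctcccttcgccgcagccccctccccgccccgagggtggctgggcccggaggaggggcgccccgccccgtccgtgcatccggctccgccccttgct
A match is a string of letters and not a shown binding site, and its absence says only that these letters are not in the window.

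INHBE, the beta subunit of activin E, a hepatokine that restrains fat breakdown, fell 7.44-fold. INHBE (ENSG00000139269) is a plus-strand gene on chromosome 12 (57452323 to 57459280). It had 54, 44 and 47 counts in parental libraries and 5, 8 and 7 in knockout libraries, or 1.12 ± 0.121 against 0.147 ± 0.0253 CPM (SD, n = 3 each). The groups were far apart, although the gene was scarce in both. The log2 fold change was -2.89 (SE 0.38, edgeR adjusted p = 5.12e-09), and 18 of the tested genes had a lower value. INHBE passed the low-count filter through the parental libraries alone and so had to differ. Its p-value and rank are therefore a description only. The regional median was 0.01.

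INHBA, the beta A subunit shared by activin A and inhibin A, was abundant and did not pass the test. INHBA (ENSG00000122641) is a minus-strand gene on chromosome 7 (41667168 to 41705834). Its level was 190, 183 and 187 CPM in parental libraries and 185, 176 and 180 CPM in knockout libraries, so the groups overlapped. The log2 fold change was -0.05 (SE 0.029, edgeR adjusted p = 0.171), with an approximate 95% interval from -0.11 to 0.01. The antisense gene INHBA-AS1 overlaps it and had at most 5 counts. Within each library the log2 ratio of INHBE to INHBA, which does not depend on scaling, was -7.25, -7.50 and -7.37 in parental and -10.44, -9.91 and -10.15 in knockout libraries. The difference was -2.79 (exact permutation test, two-sided, p = 0.1, the smallest possible, also after adjustment over 2 ratios). The filter limit on INHBE holds for this ratio too.

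ADM2, also called intermedin, a vasodilator peptide of the calcitonin family, was found in parental libraries alone. ADM2 (ENSG00000128165) lies near the end of chromosome 22, from 50481556 to 50486440 on the plus strand. Its counts were 20, 23 and 35 in parental and 0, 0 and 0 in knockout libraries. The parental level was 0.605 ± 0.198 CPM (SD, n = 3), and a total of 78 parental counts set against 3 counts over the knockout group placed the gene at least 27.1-fold lower (edgeR adjusted p = 1.45e-09). Without knockout replicate 1, 2 or 3 this bound was 18.8-, 17.7- and 17.6-fold, since fewer libraries then share the 3 counts. Without parental replicate 1, 2 or 3 it was 30.3-, 28.9- and 22.1-fold. The bound takes the parental counts as they stand, without their error. Genes around it had a median log2 fold change of -0.27. ADM2 passed the low-count filter through the parental libraries alone and so had to differ. Its p-value is therefore a description only.

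ADM, or adrenomedullin, the more abundant peptide of the same family and a product of hypoxic cells, fell 1.41-fold. ADM (ENSG00000148926) is a plus-strand gene on chromosome 11 (10304680 to 10307397). It was at 120, 119 and 117 CPM in parental libraries and at 75.5, 92.8 and 83.4 CPM in knockout libraries. The knockout libraries were all lower and spread more widely, with means of 119 ± 1.64 and 83.9 ± 8.66 CPM (SD, n = 3 each). The log2 fold change was -0.50 (SE 0.067, edgeR adjusted p = 0.000625). Neighbouring genes on chromosome 11 were also lower, with a median of -0.19, and ADM was at -0.31 (adjusted p = 0.00929) with that median removed.

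The stanniocalcins are glycoprotein hormones first found in fish as regulators of calcium and known in mammals as inhibitors of the pappalysin proteases. STC2 (ENSG00000113739, chromosome 5, 173314713 to 173329503, minus strand) was at 310, 318 and 318 CPM in parental libraries and at 277, 281 and 280 CPM in knockout libraries. This was a small decrease of 1.13-fold, yet the libraries of each group lay close together, at 315 ± 4.71 and 279 ± 2.06 CPM (SD, n = 3 each). The log2 fold change was -0.17 (SE 0.027, edgeR adjusted p = 4.61e-07), and 3701 tested genes had a lower one.

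STC1 (ENSG00000159167, chromosome 8, 23841915 to 23854807, minus strand) was at 6.16, 6.69 and 8.57 CPM in parental libraries and at 8.80, 8.67 and 7.99 CPM in knockout libraries. The groups overlapped, because parental replicate 3 lay above knockout replicate 3. The means were 7.14 ± 1.27 and 8.49 ± 0.434 CPM (SD, n = 3 each), with a log2 fold change of 0.25 (SE 0.10, edgeR adjusted p = 0.0473). The call was lost without knockout replicate 1 or 2 (0.22 and 0.23) and without parental replicate 1 or 2 (0.15 and 0.20), while without parental replicate 3 the value was 0.40 (adjusted p = 0.00196). DESeq2 did not call it (adjusted p = 0.106), nor did the fit with the regional median of 0.09 removed (0.16, adjusted p = 0.247). The log2 ratio of STC2 to STC1 was 5.65, 5.57 and 5.21 in parental and 4.98, 5.02 and 5.13 in knockout libraries. The groups did not overlap, and the difference was -0.44 (exact permutation test, two-sided, p = 0.1, the smallest possible).

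**Figure D4:**
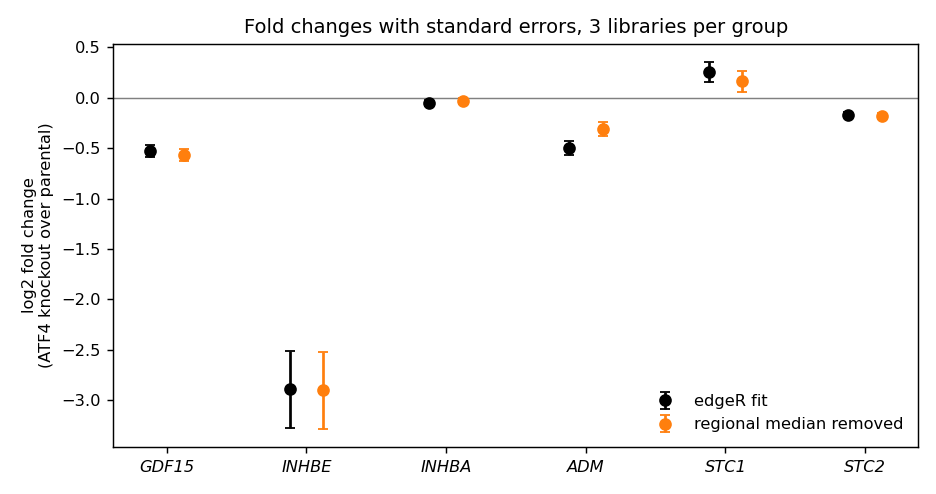
Knockout over parental log2 fold change with its SE (3 libraries a group) for 6 factors, from the edgeR fit (black) and with the median of genes within 10 Mb removed (orange), ADM2 and FGF21 not being drawn. ADM moves from -0.50 to -0.31 and STC1 from 0.25 to 0.16, while INHBE is at -2.89 and -2.90.

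Several receptors specific to these hormones were at or near 0 counts in both groups. Of 20 listed receptors and co-receptors, 11 were tested. GFRAL, the GDF15 receptor, CALCR and the 3 RAMP proteins that pair with CALCRL to bind adrenomedullins had 0 counts in all libraries, while KLB, the FGF21 co-receptor, had at most 1 count and RET, the signalling partner of GFRAL, at most 4. CALCRL itself was at 9.50 and 8.98 CPM in parental and knockout libraries and was not called. Of the tested receptors 4 were lower and 3 higher, with a median log2 fold change of -0.08 beside 0.01 over all genes, of which 20.8% were called lower and 21.2% higher. KL, the klotho co-receptor for FGF23, rose 2.78-fold (edgeR adjusted p = 2.53e-24), its level being 8.28 ± 0.147 CPM in parental and 23.1 ± 0.958 CPM in knockout libraries (SD, n = 3 each). FGFR3 and the activin receptor ACVR2B were higher by 0.32 and 0.21 on the log2 scale. The lower ones were FGFR2, FGFR1, FGFR4 and the activin receptor ACVR1B, at -0.41, -0.17, -0.12 and -0.11, and the number of receptors called lower was 2 without parental replicate 3 and without knockout replicate 2 or 3.

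Among 12 tested genes of activin subunits, antagonists and SMAD signalling, 3 were lower and 1 higher (median -0.01), where 20.8% and 21.2% of all genes were. FSTL1, a secreted follistatin-like glycoprotein, fell 2.30-fold (log2 -1.20, edgeR adjusted p = 7.29e-39), with levels of 264 ± 5.37 and 115 ± 1.42 CPM. PMEPA1, an inhibitor of SMAD signalling, was at -0.30, or -0.12 with its regional median on chromosome 20 removed, and the activin-binding FSTL3 was at -0.10. BAMBI, a decoy receptor, was higher by 0.38 but was not called with the regional median removed, where SMAD3 and SMAD7 were called lower at -0.09 each. SMAD2, SMAD4, SKI, SKIL and TGIF1 were not called in either fit. The remaining subunits were scarce, with INHBB at 0 and INHA and INHBC at no more than 4 counts, as was the antagonist FST at 0.

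In the stanniocalcin and IGF axis 5 of 12 genes were tested, of which 2 were higher and 2 lower (median 0.14), beside 21.2% higher and 20.8% lower over all genes. IGFBP3, the main carrier of circulating IGF, rose 1.85-fold (log2 0.89, edgeR adjusted p = 4.44e-33), with levels of 717 ± 9.66 and 1325 ± 23.9 CPM, and the receptor IGF1R was higher by 0.14. IGFBP6 and the clearance receptor IGF2R were at -0.18 and -0.16. PAPPA, the protease that stanniocalcins inhibit, had 9 to 26 counts per library and was not called, at 0.43 (SE 0.39). IGFBP4, its best known substrate, was at 0 counts.

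Enzymes that mature such prohormones and the other calcitonin family genes gave 4 lower and 2 higher of 8 tested (median -0.05), against shares of 20.8% and 21.2% among all genes. The convertase FURIN was lower at 105 ± 2.82 against 128 ± 2.71 CPM (log2 fold change -0.29, edgeR adjusted p = 4.47e-11), and PCSK6, PCSK5 and MBTPS1 were at -0.31, -0.60 and -0.07. PAM, which amidates adrenomedullin, was higher by 0.11. ADM5, a scarce gene of the same family, had 9 to 24 counts and was higher by 1.08 (SE 0.41, edgeR adjusted p = 0.0291). Its lowest count, in a parental library, lay under the filter's minimum of about 10. ADM5 thus passed through the knockout libraries, where it was higher, and its p-value is a description only. The numbers of genes called were fragile, with 1 lower without parental replicate 1 or 2 or knockout replicate 1 or 2. There was 1 higher without any 1 of the libraries except knockout replicate 2.

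Of the other secreted stress factors, 8 were lower and 5 higher of 17 tested (median -0.14), and the shares over all genes were again 20.8% and 21.2%. The lipase inhibitor ANGPTL4 was higher at 60.9 against 32.8 CPM (log2 fold change 0.89), as were MANF, a factor secreted on endoplasmic reticulum stress (0.45), and the ERBB ligand NRG1 (0.40). The ERBB ligand AREG had 11 to 34 counts and was higher by 0.87, a call lost with the regional median removed. IL6 and VEGFA were lower at -0.53 and -0.28. LIF and CRELD2 on chromosome 22 were at -0.24 and -0.32, but at 0.04 and -0.05 with the regional median removed, where neither was called. The part that regional shifts play in these lists was not otherwise tested.

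**Figure D5:**
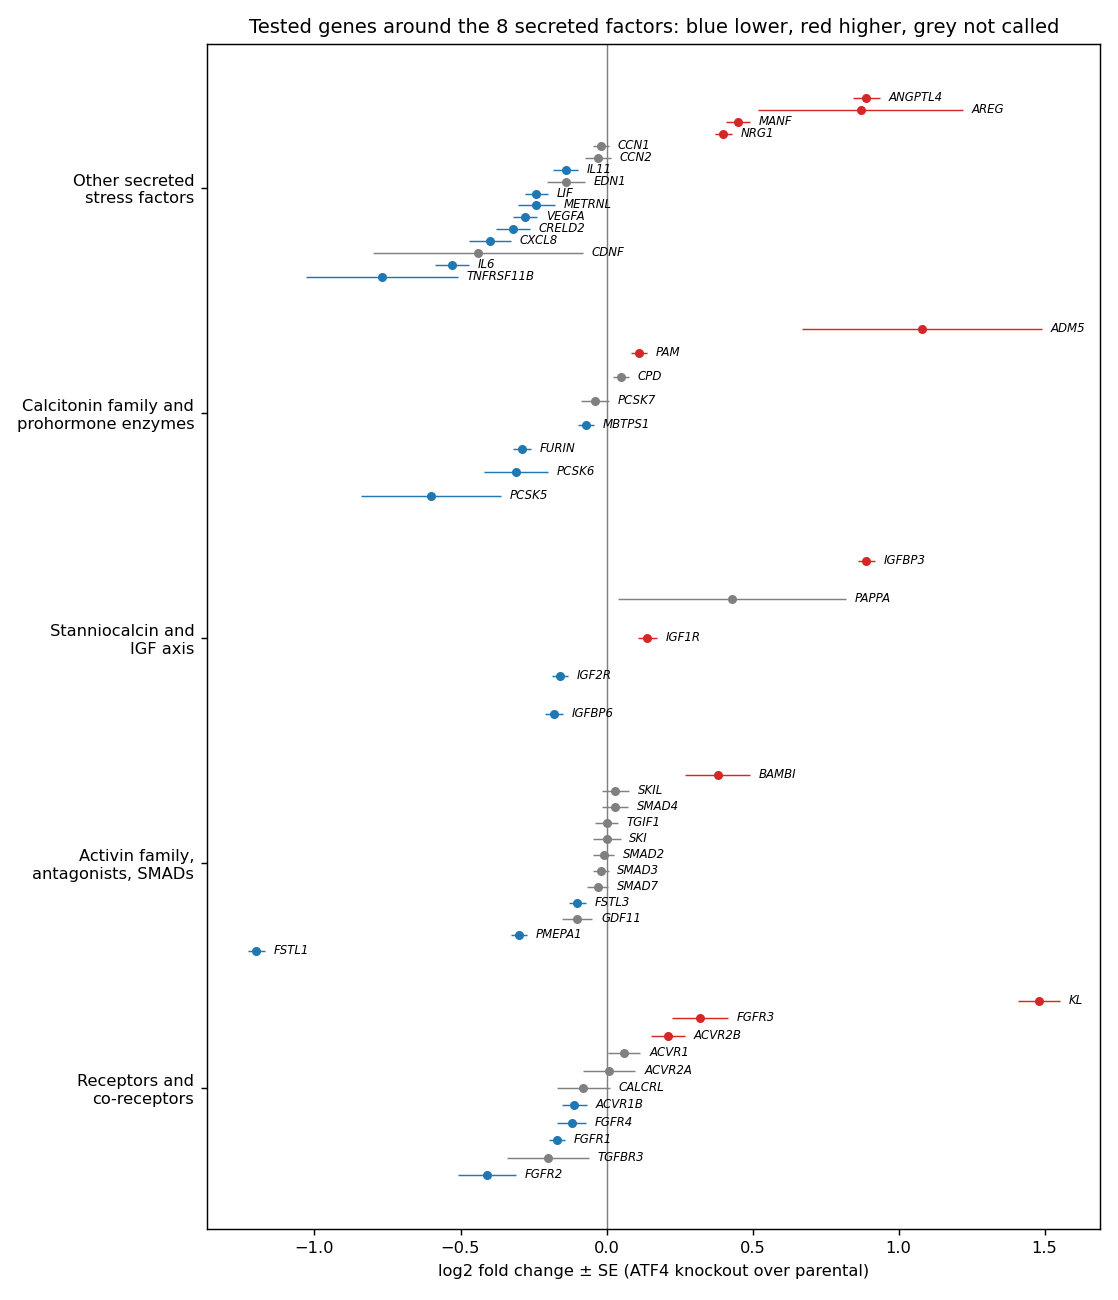
Knockout over parental log2 fold change with its SE (3 libraries a group) for tested genes of 5 lists of receptors, partners and other secreted factors, in blue where called lower, red where called higher and grey where not called. KL at 1.48 and FSTL1 at -1.20 lie farthest from 0 among the genes with small errors.

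The genes whose levels most resembled those of each factor over the 6 libraries were found by Pearson's r of log2 CPM. For GDF15 these were CES3 (r = 0.999) and FGFR1 (0.998), for INHBE PNPLA3 and FHL1 (0.999 each), and for ADM2 CCBE1 (0.999). ADM was closest to CFAP47 (0.999) and MGAT4A (0.996), and STC2 to FAM217B and PPP1R37 (0.999 each). INHBA and STC1 had weaker partners, ST13P7 (0.989) and LNP1 (0.987), and the pseudogenes DHFRP1 (0.993) and SDHAP4 (0.988). These are the highest values among 15321 genes over 6 libraries that fall into 2 groups, and they are given as a description only.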

How the data were processed

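Total RNA of 6 RCC4 samples was sequenced after stranded mRNA library preparation. Per the labels' processing notes, the authors used bcl2fastq 2.20, cutadapt, STAR and HTSeq with GRCh38 and deposited raw counts of reads per gene. Other versions, annotation release and strand setting: not given in the sources used here. Identifiers were named from a gene-name table (60370 of 60683) and GENCODE 29 (289), which also gave positions.

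The 8 genes and all lists were chosen with earlier results of these data known. Groups were compared in R 4.3.3 with edgeR 4.0.16 (filterByExpr, TMM, robust quasi-likelihood F test, no replicate term), adjusting over 15321 genes by the Benjamini-Hochberg method and calling genes at an adjusted p below 0.05. The SE of an edgeR value is approximate, being the size of the log2 fold change divided by the square root of F. Its p-value comes from the F test and cannot be derived from this SE by a normal curve. The code of the fit was also run on counts simulated from its own means and dispersions. These held no regional shifts, so that run is no check of the calls reported here. Named genes were the 8 factors, ATF4, the 4 genes of smallest p in each list, every called gene where 5 or fewer were called in a direction, and the 2 most alike genes per factor. MIR3189 and other list genes outside this rule, such as VEGFA, LIF, CRELD2 and those not called or with few counts, were named after their values were seen, and 2 genes that it covers are not reported here. Ratios of 2 genes used counts plus 0.5 and exact permutation tests. A gene with no counts was bounded by 3 counts, and such bounds and floors cover only the counting error of the libraries without counts. Regional medians were taken over tested genes starting within 10 Mb (at least 10), and the SE of a value with the median removed leaves out the error of that median. Alternatives were DESeq2 1.42.0, limma-voom (limma 3.58.1), other scalings and filters, a replicate block, removal of the regional median and leaving out each library.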

Additional observations from a re-analysis of the deposited data

How the results depend on the processing

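GDF15, ADM and STC2 were called lower under every alternative run, with log2 fold changes of -0.58 to -0.47, -0.58 to -0.31 and -0.19 to -0.15, and INHBE at -3.02 to -2.79 wherever it was tested. The adjusted p of ADM2 ran from 9.16e-14 to 4.59e-07, and INHBA was called under none (-0.07 to -0.02). Since INHBE and ADM2 passed the main filter through the parental libraries alone, their ranges are a description only. The strict filter (at least 1 CPM, on total counts without TMM scaling, in all libraries of a group) left out INHBE and ADM2, so that 3 factors were called lower. STC1 was not called with DESeq2 (0.25, adjusted p = 0.106), DESeq2's size factors in edgeR (0.25, adjusted p = 0.0505) or the regional median removed (0.16, adjusted p = 0.247), and 0 factors were then called higher. Leaving out 1 library gave 0.15 to 0.40 for STC1, 0 to 1 factors called higher and 5 called lower. The same-numbered libraries did not deviate together (correlations of -0.028, 0.006 and -0.016), and the edgeR fit with a replicate block gave STC1 at 0.26 (adjusted p = 0.0541) and 0 factors called higher. It changed no other call of a factor. With the regional median removed ATF4 turned from -0.19 to 0.08, and 5 activin genes were lower and 0 higher. Without the low-count filter or with total counts, 2 receptors and 2 calcitonin and processing genes were lower. Of the latter list 1 was higher with DESeq2, without the filter or with the strict filter. Leaving out 1 library gave 2 to 4 lower receptors, and 1 to 3 lower and 1 to 2 higher calcitonin and processing genes. Causes were not tested. Of the values recomputed, 295 kept their call or stayed within 1.5 times, and 30 counts moved further. The 8 calls lost were all of STC1, each in a different fit, and the 1 reversed was that of ATF4. Among the counts that moved were those of factors called higher, which repeat the losses of STC1. A level under 0.0634 to 0.0729 CPM (3 counts) can be missed in 1 library.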
